A study of Homo sapiens with 7 samples.

Results

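The solute carrier family 25 (SLC25) is the largest group of transporters in the inner mitochondrial membrane. Its members share a fold of repeated membrane-spanning helices and exchange nucleotides, phosphate, carboxylates, amino acids, carnitine, cofactors and metal ions between the cytosol and the matrix, and a few sit in peroxisomes or in the outer membrane. Leukemia cells depend on these carriers for ATP export, for citrate that feeds lipid synthesis and for the glutathione that protects the matrix. The genes were chosen by name: every gene of the deposited tables whose symbol is SLC25A followed by a number, without SLC25A37 and SLC25A38. This gave 33 carriers among the 10452 genes tested. Of the 48 SLC25A symbols that were counted at all, 35 reached the tables, 2 were left out by the naming rule and 13 fell below the limit of 10 CPM (CPM is the count of a gene scaled to a common library total) in at least 2 libraries. Of the 33 carriers, 31 reached 10 CPM in all 7 libraries, SLC25A14 did in 6 and SLC25A29 in 5. No carrier passed that limit through the libraries of 1 group alone.

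RNA of 7 lines of K562 was sequenced, a long-established cell line from chronic myeloid leukemia with a BCR::ABL1 fusion. The control lines were drug naive K562 and K562 kept in the DMSO vehicle. The DasR lines were K562 cells resistant to 10, 15, 25, 50 or 200 nM of dasatinib, a tyrosine kinase inhibitor, and were obtained by raising the dose stepwise. The 10, 15 and 25 nM lines formed the early stage group and the 50 and 200 nM lines the late stage group. These groups follow the study, which drew them from a clustering of the same libraries. Each line gave 1 library, so lines within a group stood in for replicates, the spread within a group includes dose, and p-values measure only the spread between these lines. The DasR lines are successive steps of a dose escalation and are not independent cultures. RNA came from whole cultures, in which fewer cells of a type and less RNA per cell cannot be told apart.

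The libraries held 21007761 counts in the drug naive line, 24037893 in the DMSO line, 27808639, 27844799 and 20059656 at 10, 15 and 25 nM, and 20827519 and 21588772 at 50 and 200 nM. The 33 carriers held between 146 and 12868 counts per library. As a check of the labelled cell line, 10 erythroid and K562 genes summed to 4306 and 3676 CPM in the drug naive and DMSO lines, 13188, 13577 and 10505 CPM at 10, 15 and 25 nM, and 7648 and 5810 CPM at 50 and 200 nM. HBG2, a fetal globin gene, was the most abundant of them in every line except at 15 and 25 nM, where HBZ, an embryonic globin gene, was higher. The lymphocyte marker MS4A1, the platelet markers GP9 and PF4 and the epithelial marker CDH1 had between 0 and 1 counts in every library. Other markers of these cell types were present, and some moved with the groups. ITGA2B, a megakaryocyte integrin, had 63.9 and 52.5 CPM in the control lines, 13.4, 5.96 and 13.2 CPM at 10, 15 and 25 nM, and 56.8 and 99.2 CPM at 50 and 200 nM. It fell in the early stage lines (log2 fold change -2.44, SE 0.37, edgeR FDR 0.00234). The megakaryocyte gene GP1BA was below both controls, at 5.62 and 7.28 CPM, in every DasR line. It had 2.88, 2.55 and 2.34 CPM at 10, 15 and 25 nM, and 3.31 and 2.78 CPM at 50 and 200 nM. The T cell gene CD3D lay between 2.73 and 29.6 CPM and was lowest at 15 nM and highest at 200 nM (early stage log2 fold change -1.35, edgeR FDR 0.0604). The fibroblast gene COL1A2 had 344 counts in the DMSO line, 42 in the drug naive line and between 1 and 11 in the DasR lines. The fibroblast genes COL1A1 and DCN instead lay above both controls in every early stage line. COL1A1 had 53 and 117 counts in the drug naive and DMSO lines and 145, 265 and 166 at 10, 15 and 25 nM. At 50 and 200 nM it had 182 and 76. DCN had 9 and 7, then 33, 41 and 19, and then 17 and 7 counts in the same order. The epithelial EPCAM lay between 50.9 and 75.3 CPM and the monocyte gene LYZ between 24.6 and 101 CPM. The part of these genes in the results on the carriers was not tested.

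Against the controls, 5 of the 33 carriers (15.2%) passed an FDR of 0.005 in the early stage lines (quasi-likelihood test of edgeR, Benjamini-Hochberg adjustment over all genes), compared with 18.0% of all genes tested. SLC25A44, SLC25A39 and SLC25A17 rose and SLC25A25 and SLC25A40 fell. The 3 higher carriers were 9.09% of the family beside 7.92% of all genes, and the 2 lower ones 6.06% beside 10.1%, so that the family changed at about the background rate. In the late stage lines 2 of 33 carriers (6.06%) passed, SLC25A44 higher and SLC25A40 lower, beside 7.98% of all genes, 3.42% higher and 4.56% lower. Between late and early stage lines no carrier passed, and 0% of all genes did by edgeR, although 8 carriers (24.2%) and 33.0% of all genes had an unadjusted p under 0.05 and DESeq2 called 4 carriers beside 1135 of all 10452 genes.

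The family as a whole stayed near its control level. The median log2 fold change of the 33 carriers was 0.07 in the early stage lines, where the median of all genes was 0.003, and 0.15 in the late stage lines, where that of all genes was -0.004. Single carriers ranged from -1.14 to 1.16 in the early and from -0.66 to 0.98 in the late stage lines. Summed over the family, CPM was 2917 in the drug naive line, 2977 in the DMSO line, 3115, 3236 and 3097 at 10, 15 and 25 nM, and 3115 and 3099 at 50 and 200 nM. The 5 carriers with the most counts in a line held between 56.7% and 63.6% of that sum.

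At a looser FDR of 0.05 by edgeR, 17 carriers (51.5%) differed in the early stage lines, beside 46.5% of all genes, with 11 higher (33.3%, beside 22.6%) and 6 lower (18.2%, beside 24.0%). In the late stage lines 7 carriers (21.2%) did so, beside 33.9% of all genes, with 5 higher (beside 16.2%) and 2 lower (beside 17.6%). Between late and early stage lines 4 carriers (12.1%) did so, beside 12.7% of all genes, 3 of them higher in the late stage lines (beside 6.60%) and 1 lower (beside 6.10%). At an unadjusted p under 0.05 there were 18 carriers (54.5%, beside 54.2%) in the early and 14 (42.4%, beside 45.9%) in the late stage lines.

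Levels that did not overlap between groups were counted in each direction. In the early stage lines 11 carriers lay above both controls in every line (33.3%, beside 35.4% of all genes) and 9 below (27.3%, beside 35.2%). In the late stage lines 16 lay above (48.5%, beside 33.4%) and 8 below (24.2%, beside 35.2%). Late stage lines lay above all early stage lines for 10 carriers (30.3%, beside 26.4%) and below for 8 (24.2%, beside 26.9%). Early and late stage comparisons share the same 2 control lines.

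The counts of carriers called changed when single libraries were left out, and so did the counts over all genes. Without the drug naive, the DMSO or the 25 nM line no carrier passed the FDR of 0.005 by edgeR in the early stage comparison, and 208, 529 and 535 of all genes did, compared with 1881 when every library was used. Without the 10 nM line SLC25A25 and SLC25A44 passed, and without the 15 nM line these and SLC25A39, while 1111 and 889 of all genes passed. Without the 50 or the 200 nM line the same 5 carriers and SLC25A1 passed, with 2054 and 2066 of all genes. In the late stage comparison no carrier passed once any 1 of the 7 libraries was left out, while 33 of all genes did without the drug naive, 110 without the DMSO, 590, 596 and 274 without the 10, 15 and 25 nM, and 263 and 281 without the 50 and 200 nM line. The DESeq2 Wald test called 10 carriers in the early and 4 in the late stage lines, with 3548 and 2503 of all 10452 genes. Beyond those of edgeR, these were SLC25A1, SLC25A15, SLC25A23, SLC25A36 and SLC25A46 in the early and SLC25A22 and SLC25A36 in the late stage lines. With limma voom it was 5 and 0 carriers, with 1918 and 788 of all genes.

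**Figure D1:**
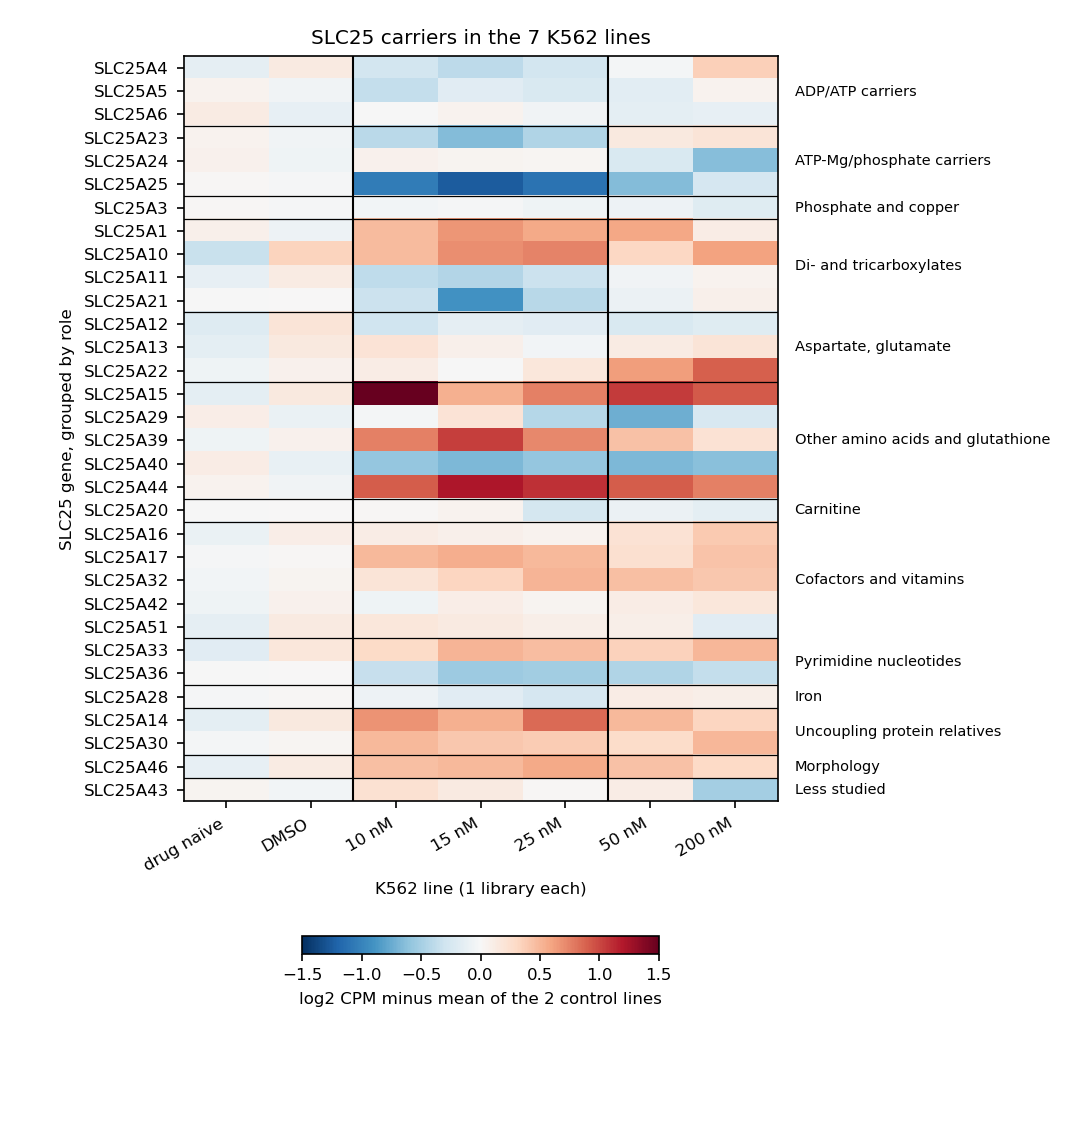
Log2 CPM of 32 of the 33 SLC25 carriers in the 7 K562 lines, each minus the mean of the 2 control lines, with 1 column per library and rows grouped by what the carriers move. The color scale ends at -1.5 and 1.5, and SLC25A15 at 10 nM lies beyond its upper end. SLC25A40 is blue and SLC25A44 red in all 5 DasR lines, while the row of SLC25A25 is at its bluest and that of SLC25A39 at its reddest in the early stage lines.

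Per kilobase of transcript, the ADP/ATP carrier SLC25A5 was the most abundant member in the control lines at 360 CPM per kb, followed by the phosphate carrier SLC25A3 at 200.2, the citrate carrier SLC25A1 at 166, the ADP/ATP carrier SLC25A6 at 130 and the glutathione carrier SLC25A39 at 102. The other 28 carriers lay between 3.86 CPM per kb for SLC25A30 and 45.4 for SLC25A23. Of the 5 carriers that passed the test in the early stage lines, SLC25A39 was among the most abundant, SLC25A40, SLC25A17 and SLC25A25 were in the middle of the family at 22.5, 18.5 and 16.9, and SLC25A44 was near its lower end at 5.49 CPM per kb.

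SLC25A25 is one of the carriers that exchange ATP-Mg for phosphate under the control of calcium and so set the adenine nucleotide content of the matrix. The gene (ID 114789) spans positions 130830480 to 130871524 of chromosome 9 in hg19, forward strand. Its level was 65.6 and 66.3 CPM in the drug naive and DMSO lines, 31.9, 28.3 and 30.8 CPM at 10, 15 and 25 nM, and 42.4 and 56.8 CPM at 50 and 200 nM. The 3 early stage lines lay below every other line, and the 200 nM line was the closest to the controls. In the early stage lines it fell 2.20-fold (log2 fold change -1.14, SE 0.13, edgeR FDR 0.000851), and the late stage value of -0.43 did not pass (edgeR FDR 0.0530). Without the drug naive, DMSO or 25 nM line the early stage FDR rose above 0.005, with log2 fold changes of -1.11, -1.16 and -1.15. SLC25A25 shares 18.2% of its 75-base words with other transcripts, mainly the antisense RNA SLC25A25-AS1, which had 443 and 542 counts in the controls, 410, 466 and 354 in the early and 379 and 463 in the late stage lines.

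The family has other carriers of this type. SLC25A23, chosen here after its values were seen, had 160 and 154 CPM in the control lines, 119, 101 and 116 CPM in the early stage lines and 175 and 184 CPM in the late stage lines, so that the early stage lines were lowest and the late stage lines highest. Its early stage log2 fold change was -0.50 (SE 0.10, edgeR FDR 0.00598), just above the threshold, and its late stage value 0.17 (edgeR FDR 0.255). SLC25A24 was flat in the early stage lines (log2 fold change 0.05, SE 0.13, edgeR FDR 0.781) and had a late stage value of -0.42 (SE 0.14, edgeR FDR 0.0528), with 70.2 CPM at 50 nM and 53.3 CPM at 200 nM beside 83.4 and 79.5 CPM in the control lines. The ratio of SLC25A25 to SLC25A24 counts was 0.787 and 0.834 in the controls, 0.372, 0.331 and 0.366 in the early stage lines, and 0.604 and 1.07 in the late stage lines.

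None of the ADP/ATP carriers, which move newly made ATP out of the matrix, passed the test in either stage. SLC25A5 had an early stage log2 fold change of -0.25 (SE 0.10, edgeR FDR 0.0778), SLC25A4, the form of muscle and heart, one of -0.32 (SE 0.15, edgeR FDR 0.115), and SLC25A6 one of -0.01 (SE 0.09, edgeR FDR 0.964). SLC25A3, which brings in phosphate for ATP synthesis and also copper, lay between 368 and 411 CPM in the 7 lines, with log2 fold changes of -0.04 in the early and -0.13 in the late stage lines. Over both stages the log2 fold changes of these 4 carriers lay between -0.32 and 0.17.

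SLC25A44, which carries branched-chain amino acids into mitochondria, rose in both stages. The gene (ID 9673) spans positions 156163723 to 156182587 of chromosome 1 in hg19, forward strand. It had 20.2 and 19.6 CPM in the drug naive and DMSO lines, 37.7, 47.0 and 43.2 CPM at 10, 15 and 25 nM, and 37.9 and 34.6 CPM at 50 and 200 nM. Every DasR line lay above both controls, and the 15 nM line was highest. The early stage increase was 2.12-fold (log2 fold change 1.08, SE 0.13, edgeR FDR 0.000913) and the late stage increase 1.79-fold (log2 fold change 0.84, SE 0.13, edgeR FDR 0.00469). Without the drug naive, DMSO or 25 nM line the early stage FDR rose above 0.005, with log2 fold changes of 1.13, 1.03 and 1.07, and the late stage FDR did so without any 1 library, with log2 fold changes from 0.76 to 0.92.

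SLC25A39 and SLC25A40 are close relatives that take glutathione, the main thiol antioxidant, into the matrix, and they moved in opposite directions. In hg19 SLC25A39 (gene ID 51629) spans positions 42396993 to 42402238 of chromosome 17 and SLC25A40 (gene ID 55972) positions 87462883 to 87505675 of chromosome 7, both on the reverse strand. SLC25A39 had 154 and 175 CPM in the control lines, 278, 342 and 274 CPM in the early stage lines, and 224 and 195 CPM in the late stage lines. SLC25A40 had 74.7 and 66.4 CPM in the control lines, 47.4, 45.0 and 47.6 CPM in the early stage lines, and 44.4 and 46.6 CPM in the late stage lines. No DasR line overlapped the controls for either gene, and SLC25A39 was highest at 15 nM while SLC25A40 was at nearly the same level in all 5 DasR lines.

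SLC25A39 rose 1.80-fold in the early stage lines (log2 fold change 0.84, SE 0.13, edgeR FDR 0.00239), and its late stage value of 0.33 did not pass (SE 0.14, edgeR FDR 0.0998). SLC25A40 fell in the early stage lines (log2 fold change -0.61, SE 0.10, edgeR FDR 0.00264) and in the late stage lines (log2 fold change -0.66, SE 0.11, edgeR FDR 0.00494). The ratio of SLC25A39 to SLC25A40 counts was therefore 2.07 and 2.63 in the controls, 5.85, 7.60 and 5.76 in the early stage lines, and 5.05 and 4.19 in the late stage lines. The early stage call of SLC25A40 was lost when any 1 control or early stage line was left out, with log2 fold changes from -0.72 to -0.49, and its late stage call when any 1 library was, from -0.77 to -0.54. That of SLC25A39 was lost without the drug naive, DMSO, 10 nM or 25 nM line, with log2 fold changes of 0.79, 0.91, 0.89 and 0.90. The summed erythroid and K562 genes given above were also highest in the early stage lines. Of these 10 genes, 4 passed the FDR of 0.005 by edgeR, all 4 higher, beside 7.92% of all genes higher. They were HBG1, TFRC and the fusion genes BCR and ABL1. GATA1, of the same list, instead had an early stage log2 fold change of -0.18 (SE 0.13, edgeR FDR 0.283). HBE1 had 651 and 600 CPM in the control lines and 473, 1651 and 720 CPM at 10, 15 and 25 nM. The part of these genes in the SLC25A39 result was not tested.

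The start windows of the 2 carriers with the smallest p in each direction in the early stage lines are shown because these genes passed the test and moved in both directions. They are the 300 bases around the transcript start in RefSeq (GRCh38.p14), read 5′ to 3′ on the strand of the gene, at chr1:156193854-156194153 for SLC25A44, chr17:44324774-44325073 for SLC25A39, chr9:128098257-128098556 for SLC25A25 and chr7:87876311-87876610 for SLC25A40. Capitals mark a cyclic AMP response element (CRE, TGACGTCA), searched on both strands and found at base 51 of the SLC25A25 window shown. The other 3 windows hold none of the 5 motifs searched, nor do 2 further start windows of SLC25A25. Both of these lie upstream of the SLC25A25 window shown, at chr9:128067982-128068281 and chr9:128091205-128091504. The CRE is therefore at an alternative start and not in the most upstream start window of the gene.
SLC25A44: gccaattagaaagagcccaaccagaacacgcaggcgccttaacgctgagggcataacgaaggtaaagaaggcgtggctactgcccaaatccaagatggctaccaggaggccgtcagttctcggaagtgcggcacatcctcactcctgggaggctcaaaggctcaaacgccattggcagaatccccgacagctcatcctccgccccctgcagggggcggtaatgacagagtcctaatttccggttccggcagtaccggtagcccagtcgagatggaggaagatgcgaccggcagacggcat
SLC25A39: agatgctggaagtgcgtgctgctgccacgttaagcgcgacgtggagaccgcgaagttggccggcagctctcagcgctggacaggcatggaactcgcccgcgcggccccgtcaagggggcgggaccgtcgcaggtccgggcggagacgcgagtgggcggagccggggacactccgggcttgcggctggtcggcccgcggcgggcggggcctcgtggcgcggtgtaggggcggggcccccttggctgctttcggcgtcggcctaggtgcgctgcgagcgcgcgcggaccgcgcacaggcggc
SLC25A25: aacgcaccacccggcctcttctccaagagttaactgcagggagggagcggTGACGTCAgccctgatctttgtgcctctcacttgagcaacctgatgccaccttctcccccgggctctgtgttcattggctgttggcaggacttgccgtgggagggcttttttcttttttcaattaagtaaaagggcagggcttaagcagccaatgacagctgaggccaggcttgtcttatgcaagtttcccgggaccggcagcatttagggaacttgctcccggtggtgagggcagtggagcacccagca
SLC25A40: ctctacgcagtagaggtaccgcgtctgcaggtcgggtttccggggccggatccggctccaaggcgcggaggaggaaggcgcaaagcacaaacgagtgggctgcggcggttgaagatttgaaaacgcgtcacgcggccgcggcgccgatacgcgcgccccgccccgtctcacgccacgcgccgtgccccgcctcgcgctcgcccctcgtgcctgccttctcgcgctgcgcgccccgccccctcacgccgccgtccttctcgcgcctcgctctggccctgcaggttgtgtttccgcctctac

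RefSeq start windows were matched for 29 of the 33 carriers, 36 windows in all. SLC25A16, SLC25A30 and SLC25A32 were among those without one in the table used. The CRE was found in 3 of the 36 (8.33%), those of SLC25A25, SLC25A33 and SLC25A36, beside 1.85% of all 35116 windows and 3.06% of those of the genes tested. The E-box CACGTG was in 6 windows (16.7%), beside 7.26% of all windows and 9.92% of those of the genes tested. An ETS motif, CCGGAAGT, was in 3 windows (8.33%), beside 4.14% and 8.38%. The NRF1 motif was in none, beside 1.24% and 2.08%, and the amino acid response element TGATGCAA in none, beside 0.866% and 0.554%. These are matches of letters on either strand and were not tested for binding. SLC25A33 and SLC25A36 hold the E-box as well as the CRE.

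The other amino acid carriers of this group did not pass the FDR of 0.005 by edgeR. SLC25A15, the ornithine and citrulline carrier of the urea cycle, was chosen for its size after the values were seen, with 33.5 and 42.9 CPM in the control lines, 137, 55.8 and 65.0 CPM in the early stage lines, and 79.4 and 73.4 CPM in the late stage lines. The 10 nM line stood far above all others. Its early stage log2 fold change of 1.16 was the largest of the family, with the largest error (SE 0.38, edgeR FDR 0.0393), and without the 10 nM line it was 0.64. The DESeq2 Wald test called it (FDR 0.00102). SLC25A29, a carrier of basic amino acids, had log2 fold changes of -0.06 and -0.47 in the early and late stage lines, with SEs of 0.25 and 0.27.

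Aspartate and glutamate carriers take part in the malate-aspartate shuttle, which moves reducing equivalents into mitochondria. SLC25A12 and SLC25A13, which exchange aspartate for glutamate, had early stage log2 fold changes of -0.22 (edgeR FDR 0.199) and 0.07 (edgeR FDR 0.630). SLC25A22, which imports glutamate with a proton, stood out in the late stage lines and was chosen after its values were seen. It had 24.1 and 27.4 CPM in the control lines, 27.8, 25.9 and 29.3 CPM in the early stage lines, and 39.9 and 49.0 CPM at 50 and 200 nM. Both late stage lines lay above the other 5, with a late stage log2 fold change of 0.77 (SE 0.13, edgeR FDR 0.00631) and an early stage value of 0.09 (SE 0.12, edgeR FDR 0.571).

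**Figure D2:**
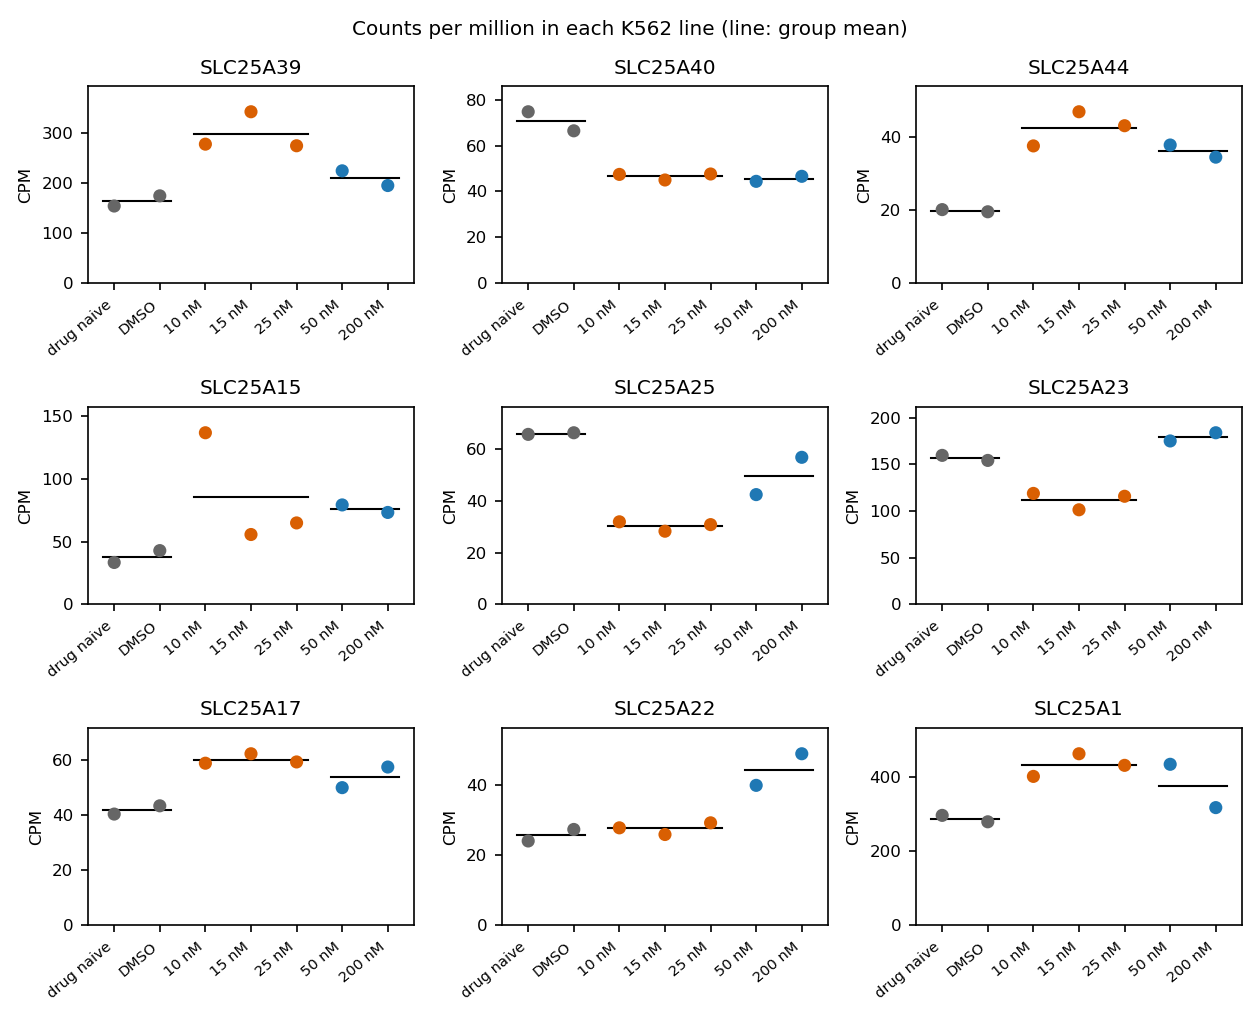
CPM of 9 SLC25 carriers in each K562 line, with 1 point per library, gray for controls, orange for the early and blue for the late stage lines, and horizontal lines at the group means. SLC25A39 and SLC25A44 lie higher and SLC25A25, SLC25A40 and SLC25A23 lower at 10, 15 and 25 nM than in the controls, and SLC25A22 is highest at 50 and 200 nM, 39.9 and 49.0 CPM.

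Carriers of di- and tricarboxylates link the citric acid cycle to the cytosol, and none of the 4 passed the FDR of 0.005 by edgeR over all 7 libraries. SLC25A1 exports citrate for fatty acid and cholesterol synthesis. It had 296 and 279 CPM in the control lines, 401, 462 and 431 CPM in the early stage lines, and 434 and 317 CPM in the late stage lines, and the 200 nM line lay closest to the controls. Its early stage log2 fold change was 0.57 (SE 0.15, edgeR FDR 0.0171) and its late stage value 0.36 (SE 0.16, edgeR FDR 0.115). The early stage value passed by DESeq2 (FDR 0.000429), and by edgeR with the compared groups alone (FDR 0.00385) or without the 50 or the 200 nM line (FDR 0.00401 and 0.004). SLC25A10, the dicarboxylate carrier, had an early stage log2 fold change of 0.61 (SE 0.21, edgeR FDR 0.0447), and its controls differed, with 22.4 CPM in the drug naive and 36.9 CPM in the DMSO line. Its value was 0.32 (edgeR FDR 0.215) without the drug naive and 0.98 (edgeR FDR 0.0133) without the DMSO line. SLC25A11, the oxoglutarate and malate carrier, and SLC25A21, the oxodicarboxylate carrier, had early stage values of -0.39 (edgeR FDR 0.0293) and -0.53 (edgeR FDR 0.0425) and late stage values of -0.002 and -0.01. Without the DMSO line the early stage value of SLC25A11 was -0.25 (edgeR FDR 0.173).

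SLC25A1 (gene ID 6576) spans positions 19163094 to 19166252 of chromosome 22 in hg19, reverse strand. Of the 5 nearest tested genes on each side, 10 in all and up to 949.5 kb away, 9 lay above the control level in the early stage lines, beside 50.2% of all genes. Their median log2 fold change was 0.57, and 2 passed the FDR of 0.005 by edgeR, beside 18.0% of all genes. These 2 were CLTCL1, which rose (log2 fold change 1.24, edgeR FDR 0.00458), and BCL2L13, which fell (-0.73, edgeR FDR 0.00257) and was the 1 neighbor below the control level. Relative to the control mean, the median of these 10 genes was 0.56, 0.59 and 0.56 in the early stage lines and 0.33 and -0.13 in the 50 and 200 nM lines, as log2 differences. SLC25A1 itself was at 0.47, 0.66, 0.57, 0.58 and 0.11 in the same lines. HIRA and DGCR2 had early stage values of 0.99 and 0.87 that did not pass, and the part of the region in the SLC25A1 values was not tested. The 5 nearest tested genes on each side of SLC25A44 and of SLC25A39 had early stage medians of 0.04 and 0.14. Of these, 5 of 10 and 7 of 10 lay above the control level, and 7 of 10 did so around SLC25A17.

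Among carriers of cofactors and vitamins, SLC25A17 rose. It sits in the peroxisome, where it moves coenzyme A, FAD and NAD, and its gene (ID 10478) spans positions 41165634 to 41215403 of chromosome 22 in hg19, reverse strand. It had 40.5 and 43.5 CPM in the control lines, 59.0, 62.5 and 59.5 CPM in the early stage lines, and 50.1 and 57.6 CPM in the late stage lines. The early stage lines lay close together, as did the controls (SD 1.87 and 2.13 CPM), and the late stage lines lay farther apart (SD 5.30 CPM). No DasR line overlapped the controls. Its early stage increase was 1.42-fold (log2 fold change 0.51, SE 0.09, edgeR FDR 0.00425), the late stage value was 0.34 (SE 0.10, edgeR FDR 0.0347), and the 5 nearest tested genes on each side had an early stage median of 0.37. The early stage call was lost when any 1 control or early stage line was left out, with log2 fold changes from 0.48 to 0.53, and under library totals alone, a limit of 1 CPM or no limit on low counts.

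The other cofactor carriers gave smaller values. SLC25A32, the folate carrier, had log2 fold changes of 0.35 (SE 0.11, edgeR FDR 0.0418) in the early and 0.43 (SE 0.12, edgeR FDR 0.0353) in the late stage lines, and 96.7% of its 75-base words occur in other annotated transcripts, mostly a read-through gene. SLC25A16 and SLC25A42, both linked to coenzyme A, and SLC25A51, the NAD carrier, lay at 0.08, 0.03 and 0.13 in the early stage lines.

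The pyrimidine nucleotide carriers SLC25A33 and SLC25A36 supply precursors for mitochondrial DNA and RNA, and their values had opposite signs. SLC25A33 had an early stage log2 fold change of 0.41 (SE 0.14, edgeR FDR 0.0404), and SLC25A36 one of -0.47 (SE 0.09, edgeR FDR 0.00602). Without the drug naive line the value of SLC25A33 was 0.26 (edgeR FDR 0.222). The ratio of SLC25A33 to SLC25A36 counts was 0.185 and 0.233 in the controls, 0.322, 0.433 and 0.413 in the early stage lines, and 0.363 and 0.376 in the late stage lines, all above the controls. At the late stage SLC25A36 was at -0.40 (SE 0.10, edgeR FDR 0.0215) and SLC25A33 at 0.42 (SE 0.15, edgeR FDR 0.0650).

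SLC25A20, which brings acylcarnitines in for fatty acid oxidation, lay between 15.3 and 19.1 CPM in the 7 lines, with log2 fold changes of -0.06 in the early and -0.12 in the late stage lines. SLC25A28, an iron carrier also called mitoferrin 2, lay at -0.17 and 0.10. The uncoupling protein relatives SLC25A14 and SLC25A30 had early stage values of 0.69 (SE 0.17, edgeR FDR 0.0149) and 0.43 (SE 0.13, edgeR FDR 0.0274). SLC25A46, an outer membrane member that acts in mitochondrial shape, was at 0.50 (SE 0.11, edgeR FDR 0.00886), and SLC25A43, whose substrate is less well studied, at 0.13.

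**Figure D3:**
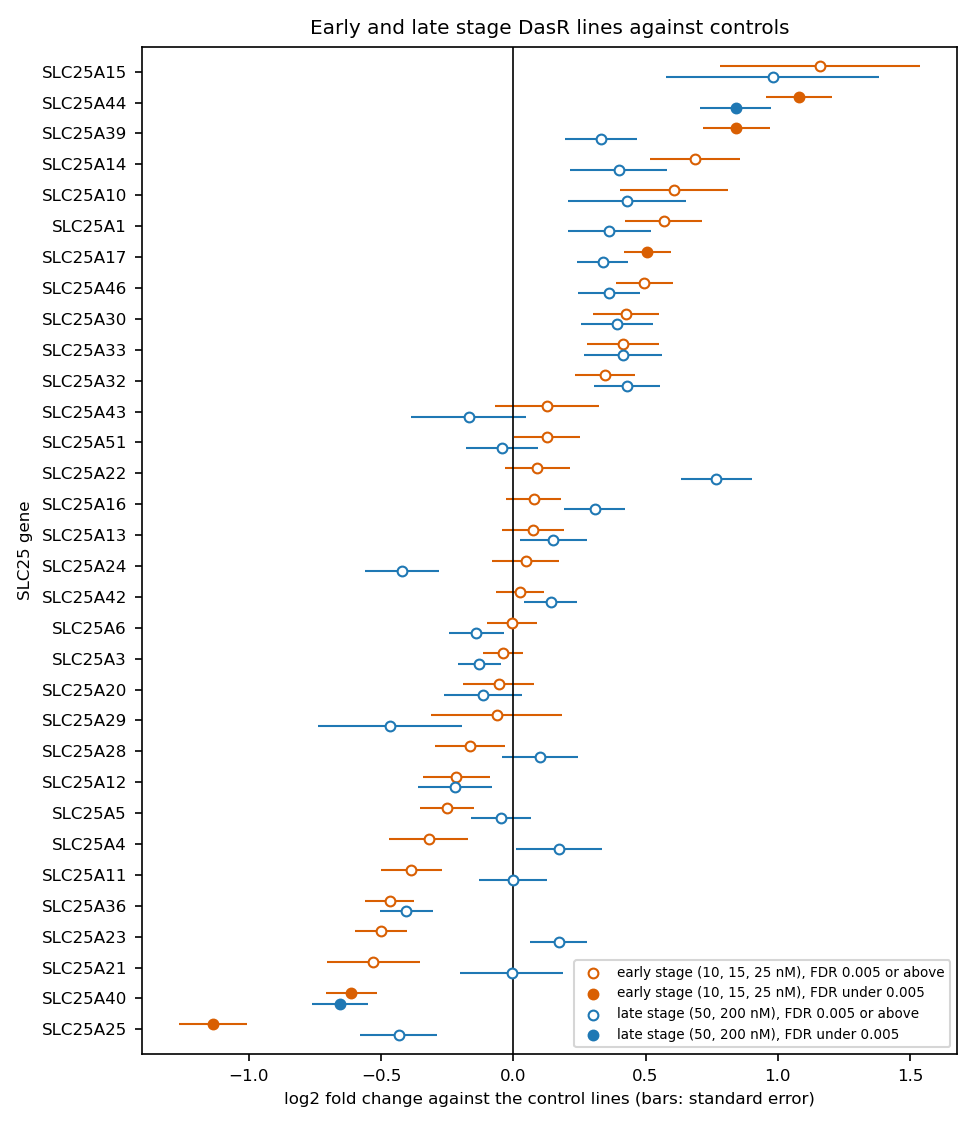
Log2 fold change of 32 of the 33 SLC25 carriers against the 2 control lines, in order of the early stage value, for the early (orange) and late (blue) stage lines, with bars for the standard error and filled points for an FDR under 0.005. The 5 filled early stage points are SLC25A44, SLC25A39, SLC25A17, SLC25A40 and SLC25A25, the 2 filled late stage points are SLC25A44 and SLC25A40, and SLC25A15 has the widest bars.

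At an FDR of 0.05 by edgeR, the 4 carriers that differed between the stages were SLC25A25 (log2 fold change 0.70, SE 0.13, edgeR FDR 0.0224), SLC25A22 (0.68, SE 0.12, edgeR FDR 0.0201), SLC25A23 (0.67, SE 0.10, edgeR FDR 0.0167) and SLC25A39 (-0.51, SE 0.13, edgeR FDR 0.0422). SLC25A25, SLC25A23 and SLC25A39 were closer to the controls in the late than in the early stage lines, and SLC25A22 was farther from them. Taken as 1 group of 5, a grouping that does not rest on clustering, the DasR lines differed from the controls at the FDR of 0.005 by edgeR in 2 carriers (6.06%), beside 8.08% of all genes. These were SLC25A40 (log2 fold change -0.63, SE 0.09, edgeR FDR 0.00259) and SLC25A44 (0.99, SE 0.14, edgeR FDR 0.00326). At an FDR of 0.05 there were 12 carriers (36.4%), beside 32.4% of all genes.

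Between the 2 controls, 22 of the 33 carriers (66.7%) were higher in the DMSO than in the drug naive line, beside 51.8% of all genes, with a median difference of 0.07 on the log2 scale. This difference spans 2 single libraries and has no replicate. The median early stage log2 fold change of the family was 0.03 without the drug naive line and 0.10 without the DMSO line, and the late stage median 0.07 and 0.21.

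Carriers below the limit on low counts were not tested. SLC25A26, the carrier of the methyl donor S-adenosylmethionine, was the highest of them at up to 8.15 CPM, followed by SLC25A35 at up to 7.16 CPM. The testis form SLC25A31, SLC25A2, SLC25A27, SLC25A47 and SLC25A48 had between 0 and 4 counts per library, which is near the floor of 3 counts. Of relatives without an SLC25A symbol, the outer membrane protein MTCH1 had an early stage log2 fold change of 0.50 (SE 0.10, edgeR FDR 0.00765) and its paralog MTCH2 one of 0.09 (edgeR FDR 0.605). The uncoupling protein UCP2 was at -0.35 (SE 0.18, edgeR FDR 0.149), while UCP1 and UCP3 had between 0 and 33 counts per library.

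Lists of genes that work with the carriers were chosen with earlier results of these data known. They cover 108 genes, of which 100 were tested. Of these, 26 (26.0%) passed the FDR of 0.005 in the early stage lines by edgeR, 10 higher and 16 lower, beside 18.0% of all genes. In the late stage lines 16 (16.0%) passed, 8 higher and 8 lower, beside 7.98%. Without the drug naive, DMSO, 10, 15 or 25 nM line the early stage count was 4, 9, 15, 11 and 7. Of the genes named from these lists, IDH1, ALDH1L2, MTHFD2 and SHMT2 passed in the early stage comparison whichever library was left out. HSPA9, GRPEL2, GLUD1, ALDH4A1, MCU and VDAC3 lost their early stage call without any 1 control or early stage line. TOMM5, TIMM8B and GOT1 lost it without the drug naive line, TOMM6 without that or the 25 nM line, and TIMM21, SUCLG1, ECI1, ETFDH and ACADVL without any of 3 or 4 of these lines. Without the drug naive line the 4 early stage calls left were all lower, so every higher call was lost, IDH3B included. The late stage count was 0 without the drug naive and 3 without the DMSO line.

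The proteins that bring carriers from the cytosol to the inner membrane, the TOM complex, the small TIM chaperones and the TIM22 complex, form the first list. In the early stage lines 6 of the 16 tested (37.5%) rose and none fell, beside 7.92% of all genes higher, and the median log2 fold change was 0.57. None of the 6 passed without the drug naive line. TOMM5, a small subunit of the outer membrane pore, had 46.3 and 56.2 CPM in the control lines, 98.4, 95.3 and 104 CPM in the early stage lines, and 119 and 130 CPM in the late stage lines (early stage log2 fold change 0.94, SE 0.10, edgeR FDR 0.000693). TIMM8B, a chaperone of the space between the membranes, rose by 1.08 (SE 0.12, edgeR FDR 0.000839), and TOMM6, another small pore subunit, by 0.81 (SE 0.10, edgeR FDR 0.00114), both on the log2 scale. In the late stage lines 3 of 16 (18.8%) rose, beside 3.42% of all genes. The receptors TOMM20 and TOMM70A, which bind carriers at the surface, did not pass, with early stage values of -0.16 and -0.17. TOMM22, of the same list, rose in the early (log2 fold change 0.78, SE 0.11, edgeR FDR 0.00184) and in the late stage lines (0.94, SE 0.12, edgeR FDR 0.00206).

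Of 13 genes of the matrix import route that were tested, 2 rose and 2 fell in the early stage lines (30.8%, beside 18.0% of all genes). TIMM21, a subunit of the inner membrane translocase, rose by 0.90 on the log2 scale (SE 0.12, edgeR FDR 0.00145). HSPA9, the matrix chaperone that pulls proteins in, fell by 0.62 (SE 0.09, edgeR FDR 0.00202), and its exchange factor GRPEL2 fell by 0.58 (SE 0.09, edgeR FDR 0.00238), both on the log2 scale. At the late stage 2 of the 13 (15.4%, beside 7.98% of all genes) rose and none fell.

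The next lists hold enzymes that use what the carriers bring. Of 24 citric acid cycle and shuttle enzymes, 5 fell and 1 rose in the early stage lines (25.0%, beside 18.0% of all genes), and 2 fell and 2 rose in the late stage lines (16.7%, beside 7.98%). The cytosolic NADP enzyme IDH1 went from 358 and 319 CPM in the control lines to 66.3, 58.9 and 62.2 CPM in the early stage lines and 90.8 and 113 CPM in the late stage lines (early stage log2 fold change -2.45, SE 0.12, edgeR FDR 7.76e-05). GOT1, the cytosolic aminotransferase of the malate-aspartate shuttle, fell by 1.40 (SE 0.12, edgeR FDR 0.000393) and SUCLG1, a subunit of succinyl-CoA ligase, by 0.91 (SE 0.11, edgeR FDR 0.00105), both on the log2 scale. IDH3B, a subunit of the NAD enzyme, was the enzyme that rose (log2 fold change 0.94, SE 0.15, edgeR FDR 0.00305).

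Of 7 mitochondrial one-carbon enzymes tested, which work on the folate that SLC25A32 supplies, 3 fell and none rose in each stage (42.9%, beside 10.1% of all genes lower in the early and 4.56% in the late stage lines). The late stage calls were all lost without the drug naive line. ALDH1L2, which oxidizes formyl groups to carbon dioxide, had an early stage log2 fold change of -2.98 (SE 0.16, edgeR FDR 7.88e-05), MTHFD2, a dehydrogenase of folate, one of -2.42 (SE 0.16, edgeR FDR 0.000157) and SHMT2, which makes glycine from serine, one of -1.07 (SE 0.08, edgeR FDR 0.000182). The corresponding late stage values were -2.27, -1.77 and -0.67. GCSH, a protein of the glycine cleavage system in the same list, was at 0.91 in the early stage lines and did not pass (SE 0.17, edgeR FDR 0.00540). In carnitine and fatty acid oxidation 3 of 16 genes fell in the early stage lines, ECI1, ETFDH and ACADVL, and none rose. This share of 18.8% stood beside 10.1% of all genes lower and 18.0% of all genes called in either direction. At the late stage 2 of the 16 fell (12.5%, beside 4.56% of all genes lower).

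Among proline and ornithine enzymes 2 of 8 fell in the early stage lines (25.0%, beside 10.1% of all genes lower), the glutamate dehydrogenase GLUD1 and ALDH4A1 of proline breakdown, and none passed in the late stage lines. OAT, which makes ornithine in the matrix, had 133 and 127 CPM in the control lines, 340.1, 253 and 242 CPM in the early stage lines, and 232 and 130.3 CPM in the late stage lines, with an early stage log2 fold change of 1.09 (SE 0.26, edgeR FDR 0.0132). Among 16 other membrane carriers and channels, 1 rose and 1 fell in the early stage lines (12.5%, beside 18.0% of all genes), the outer membrane channel VDAC3 (log2 fold change 0.43, SE 0.08, edgeR FDR 0.00428) and the calcium uniporter MCU (-0.58, SE 0.10, edgeR FDR 0.00382). SFXN5, a sideroflexin, was at -0.64 and did not pass (SE 0.12, edgeR FDR 0.00590).

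**Figure D4:**
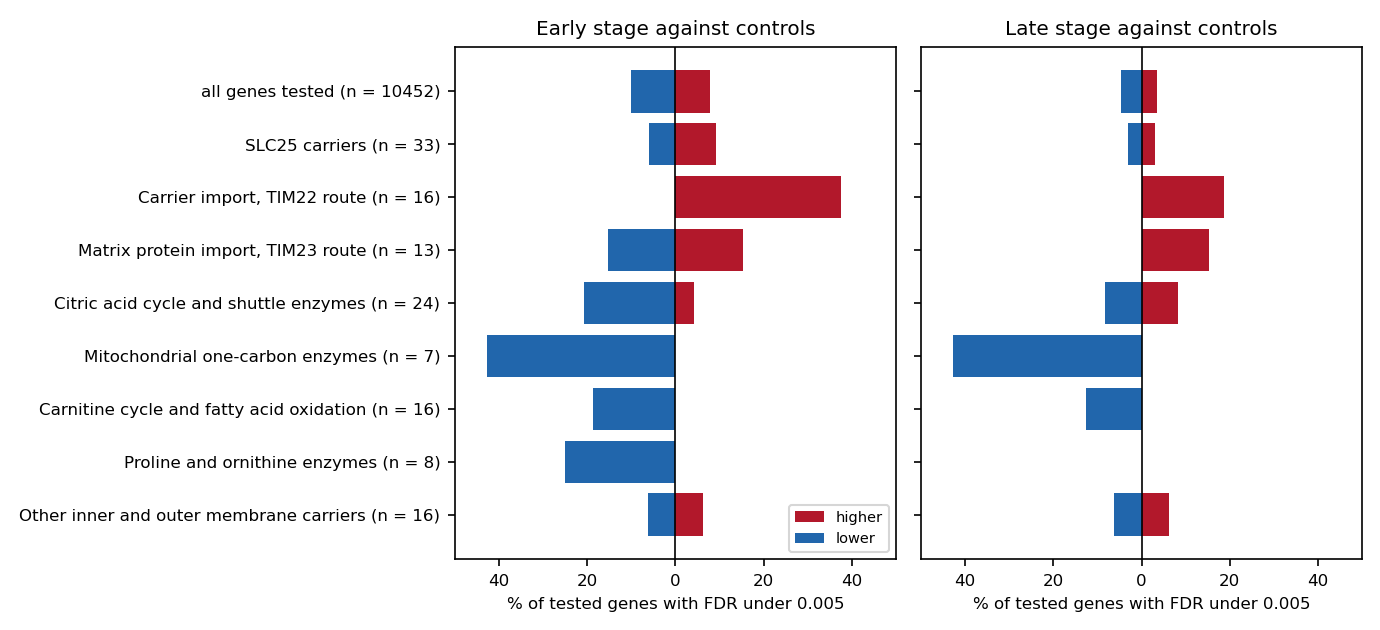
Share of tested genes with an FDR under 0.005 in the early (left) and late (right) stage lines against the controls, for all genes, the SLC25 carriers and 7 lists of genes that work with them, with higher genes drawn to the right in red and lower genes to the left in blue, in percent. The early stage SLC25 bars reach 9.09% (higher) and 6.06% (lower), close to those of all genes, while the carrier import list reaches 37.5% higher and the one-carbon list 42.9% lower. The lists were chosen with earlier results of these data known.

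How far reads of a carrier could be counted elsewhere was judged from shared 75-base words, the read length, among annotated transcripts. SLC25A44, SLC25A39 and SLC25A17 share none and SLC25A40 1.78%, with DBF4 on the opposite strand. The share was 57.4% for SLC25A10, 42.5% for SLC25A21, which overlaps PAX9 and an antisense RNA, and 19.5% for SLC25A51, which has a close copy in SLC25A52. Values of these carriers and of SLC25A32 and SLC25A25 are less certain. For SLC25A25 and SLC25A21, which overlap antisense RNAs, the strand setting of the counting would bear on this and is not given in the sources used here. The same holds for other carriers with a gene on the opposite strand. SLC25A32 shares 11.1% of its exon bases with DCAF13, which had between 1146 and 2190 counts per library. SLC25A5 shares 13.2% with SLC25A5-AS1, which had between 30 and 92.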

How the data were processed

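RNA was depleted of ribosomal RNA per the protocol (the labels name polyA RNA), and directional libraries were sequenced. The authors aligned reads with STAR to hg19 and counted them per gene with featureCounts, and deposited raw counts of 25702 gene IDs. Versions and the strand setting are not given in the sources used here. The authors' tables of fold changes, p-values and FDRs were used only for symbols, gene lengths and the choice of genes. Counts were tested with edgeR 4.0.16 (TMM scaling, quasi-likelihood test, R 4.3.3) over the 10452 genes that reached 10 CPM in 2 or more libraries, with 1 coefficient per group over all 7 libraries, Benjamini-Hochberg adjustment and the study's FDR of 0.005. The standard error (SE) is the log2 fold change divided by the root of F. TMM factors lay between 0.972 and 1.01. Alternatives used DESeq2 1.42.0, limma 3.58.1 and the settings listed in the closing section. Members and gene lists were chosen with earlier results of these data known. Named genes were all carriers past the FDR of 0.005 in either stage and the 3 genes of each list with the smallest early stage p. Any other carrier given by library, and the list genes IDH3B, TOMM20, TOMM22, TOMM70A and GCSH, were chosen after their values were seen. Gene positions are from GENCODE on hg19, start windows from RefSeq on GRCh38.p14. Protein sequences were not used here, and start windows were shown in their place. Of the 33 carriers, 1 enters the counts and medians but is not reported here by itself.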

Additional observations from a re-analysis of the deposited data

Results flagged for a closer look

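For 4 carriers the effect against the controls differed between the late and the early stage lines at an FDR of 0.05, though not of 0.005, by edgeR's quasi-likelihood test of the difference itself. The late minus early difference in log2 level was 0.70 for SLC25A25, 0.68 for SLC25A22, 0.67 for SLC25A23 and -0.51 for SLC25A39. With single libraries left out it ranged from 0.49 to 0.89 for SLC25A25, from 0.53 to 0.81 for SLC25A22, from 0.60 to 0.72 for SLC25A23 and from -0.63 to -0.41 for SLC25A39, and the edgeR FDR reached 0.105, 0.114, 0.0845 and 0.227. The study took the stages from the clustering of these libraries, so these differences are not independent of that grouping.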

How the results depend on the processing

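No fold change or median that was recomputed under the alternatives changed sign. Over all genes the late stage calls were 357 higher and 477 lower, and 149 higher and 132 lower without the 200 nM line. The early stage count of 5 carriers became 10 with DESeq2 and 17 at an FDR of 0.05, and 0 to 6 with single libraries left out. The late stage count of 2 became 4 with DESeq2, 0 with limma voom, 1 with RLE scaling, 1 with a limit of 1 CPM, 1 with no filter, 7 at an FDR of 0.05 and 0 with the compared groups alone, and 0 whichever library was left out. The late against early count of 0 became 4 with DESeq2, 1 (SLC25A23) with no filter and 4 at an FDR of 0.05, and 0 with single libraries left out. Over all genes the early stage count of 1881 became 3548 with DESeq2 and 4865 at an FDR of 0.05, and 208 to 2066 with single libraries left out. The late stage count of 834 became 2503 with DESeq2, 1287 with no filter, 3542 at an FDR of 0.05 and 257 with the compared groups alone, and 33 to 596 with single libraries left out. The late against early count of 0 became 1135, 295 and 1328 with DESeq2, no filter and an FDR of 0.05, and 0 to 198 with single libraries left out. Of the partner genes, 26 early stage calls became 40 with DESeq2, 53 at an FDR of 0.05 and 4 to 27 with single libraries left out, and 16 late stage calls became 39, 44, 5 with the compared groups alone and 0 to 11. The family's median log2 fold change was 0.031 to 0.098 in the early and 0.073 to 0.21 in the late stage lines with single libraries left out, and 0.20 in the late stage lines with no filter. The causes were not tested. No paired analysis was possible because each DasR line is its own dose and the labels give no replicate numbers. With 1 library per line, dose, culture and library cannot be told apart.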
